A study of Mus musculus with 2 samples.

Results

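New combinations of annotated splice sites are transcript models whose splice donors and acceptors are listed in the annotation but whose chain of junctions is in no annotated transcript. The models described here had this class in the deposited transcript tables of both libraries and were matched between the tables by chromosome, strand and chain of splice junctions. The match gave 2690 chains in 1658 genes, called members below, out of 53224 spliced chains in replicate 1, 50294 in replicate 2 and 23250 found in both. The tables came from long-read RNA sequencing of the gastrocnemius, a calf muscle, of male B6CASTF1/J mice at 36 days of age, a hybrid of B6 and CAST parents. Reads of the skeletal actin gene Acta1 (80662 and 82734) and the muscle creatine kinase gene Ckm (77131 and 90410) were abundant in both libraries. There was 1 group with 2 biological replicates (male 03 as replicate 1, male 04 as replicate 2), each from 2 µg of RNA with spike-in RNAs added, which leaves no conditions to compare, and no test was made. The depth was 1106945 reads over 72469 models (replicate 1) and 1514119 reads over 88667 models (replicate 2), of which 1036455 and 1374068 reads were in annotated mouse genes. Positions are on mm10, shares carry Wilson 95% intervals that cover counting error only, and values over both libraries are means ± SD (n = 2).

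Splicing removes introns and joins exons, and a gene can give different transcripts when an exon is left out, an intron stays in, or a neighbouring splice site or another first or last exon is used. Skeletal muscle is known for isoform switches in sarcomere and calcium-handling genes, many of them directed by the muscleblind, CELF and RBFOX families of RNA-binding proteins. An annotation lists whole transcripts, so a pairing of known sites can be missing from it although each site is listed.

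Short stretches of coding sequence show what leading members changed, read from the GENCODE M21 transcripts on mm10 in the sense of the gene and running across exon joins. In the first group the capitals mark very short annotated exons that the members span. They are at chr7:142442691-142442697 (plus strand) in Tnni2, chr1:135803282-135803285 (plus) in Tnni1, chr6:124716425-124716430 (plus) in Phb2, chr9:25265302-25265306 (plus) in Sept7 and chr17:8293415-8293418 (plus) in Mpc1.
Tnni2: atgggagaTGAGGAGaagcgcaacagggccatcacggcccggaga
Tnni1: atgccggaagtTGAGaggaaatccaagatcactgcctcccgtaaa
Phb2: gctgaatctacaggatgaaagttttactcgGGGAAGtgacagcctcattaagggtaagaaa
Sept7: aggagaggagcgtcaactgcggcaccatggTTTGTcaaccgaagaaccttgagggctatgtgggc
Mpc1: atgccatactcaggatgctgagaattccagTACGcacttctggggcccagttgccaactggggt
The Tnni2 and Tnni1 stretches begin at the start codon, and the marked bases of Tnni1 are also the first of those marked in Tnni2. In Mpc1 the lowercase bases before the capitals also lie within the junction of the leading member, chr17:8283962-8296534. That member therefore lacks them as well as the capitals.

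In Oaz1 the capitals mark bases that the reference model leaves out as an intron, at chr10:80828292-80828295 (plus), and that the leading member holds.
Oaz1: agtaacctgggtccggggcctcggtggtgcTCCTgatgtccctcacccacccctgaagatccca

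The next group shows longer exons that members skip, in capitals: chr14:120404638-120404732 (plus) in Mbnl2, chr3:152249660-152249701 (minus) in Nexn, chr3:126808208-126808249 (plus) in Camk2d and chr10:88521277-88521335 (minus) in Mybpc1.
Mbnl2: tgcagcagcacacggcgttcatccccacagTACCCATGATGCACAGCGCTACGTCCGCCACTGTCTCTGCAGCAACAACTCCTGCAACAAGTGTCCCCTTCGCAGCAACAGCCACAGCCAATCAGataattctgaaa
Nexn: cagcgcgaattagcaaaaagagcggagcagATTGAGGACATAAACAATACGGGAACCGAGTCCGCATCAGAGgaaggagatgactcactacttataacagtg
Camk2d: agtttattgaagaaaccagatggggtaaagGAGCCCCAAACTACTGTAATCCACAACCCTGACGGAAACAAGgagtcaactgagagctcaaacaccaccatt
Mybpc1: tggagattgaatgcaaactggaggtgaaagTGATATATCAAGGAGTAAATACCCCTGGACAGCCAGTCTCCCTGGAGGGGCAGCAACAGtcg

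The last group shows a swapped exon and small shifts of an acceptor. In Eno1 the capitals mark the exon of the member (chr4:150241767-150241825, plus) and the exon of the same length that its reference has in that place (chr4:150242122-150242180, plus). In Srl (chr16:4493878-4493880, minus) and Ctbp1 (chr5:33248684-33248686, minus) they mark the bases between a pair of acceptors, which the members keep. The lowercase bases before the capitals of Srl come from an exon of another annotated model. They lie within the junction of the Srl member, chr16:4493881-4522992, so that member lacks them.
Eno1 member: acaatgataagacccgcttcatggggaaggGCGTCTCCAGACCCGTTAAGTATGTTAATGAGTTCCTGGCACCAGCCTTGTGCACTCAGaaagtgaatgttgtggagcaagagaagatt
Eno1 annotated: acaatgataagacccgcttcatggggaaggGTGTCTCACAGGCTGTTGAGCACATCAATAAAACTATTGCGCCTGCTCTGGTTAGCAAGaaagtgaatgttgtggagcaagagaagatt
Srl: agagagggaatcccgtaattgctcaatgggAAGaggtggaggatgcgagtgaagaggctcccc
Ctbp1: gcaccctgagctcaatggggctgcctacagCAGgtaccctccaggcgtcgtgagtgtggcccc

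The class label was checked against the annotation. None of the 2690 chains was identical to an annotated chain, as the class requires. However, 375 members (13.9%) held at least 1 splice site that no GENCODE M21 model has on that strand, so they go against the name of the class. They held 11.5% of member reads in replicate 1 and 13.3% in replicate 2. They were frequent in a few muscle genes: all 36 members of Tnnt3, the fast troponin T gene, 26 of the 35 members of Myl1, an essential myosin light chain gene, and 21 of the 23 members of Atp2a1, a calcium pump gene, held such a site. The other 2315 members used annotated sites alone. Results that moved without the 375 are given with both values.

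The tables did not always put a chain in the same class. Besides the members, 851 chains had reads in both libraries and were a new combination in 1 table and another class in the other, with 18343 and 21253 reads. Most of those reads were of Aldoa, the muscle aldolase gene of glycolysis. A 9-exon chain of Aldoa had 12320 reads (83.3% of the reads of the gene) in replicate 1, where it was an incomplete match, and 14236 reads (77.5%) in replicate 2, where it was a new combination. The reads of that chain lie outside every member count below.

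Members made up a small part of the transcriptome. They held 26383 reads in replicate 1 and 26118 in replicate 2, which was 2.55% (interval 2.51 to 2.58%) and 1.90% (1.88 to 1.92%) of reads in annotated genes, or 2.22% ± 0.46 (SD, n = 2). The intervals do not overlap, so the libraries differed by more than counting error. The new-combination class as a whole, found again or not, took 3.55% of gene reads in each library. That value holds the Aldoa chain in replicate 2 alone: without it the class took 3.55% and 2.51%, and with it in both libraries 4.74% and 3.55%. Beside it, as the tables class them, stood annotated chains with 67.2% and 63.8% and chains with a new junction with 12.4% and 4.58%. Reads were concentrated: the member with the most reads, of Tnni2, took 13.9% and 18.5% of all member reads, and the first 20 members took 46.8% and 52.9%. At the other end, 689 members (25.6%) had a single read in each library, 1172 had at least 2 reads in each, 214 at least 10 and 37 at least 50.

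Chains with few reads were found again less often than chains with 5 or more. In replicate 1, 16.1% of the 6571 single-read chains were members, 49.5% of those with 2 to 4 reads, 79.8% of those with 5 to 9, 86.3% of those with 10 to 49 and 85.1% of those with 50 or more. In replicate 2 the shares were 21.6%, 56.2%, 82.5%, 82.9% and 80.7%. With a match in any class counted, 99.7% and 99.3% of chains with 10 to 49 reads, and 100% of those with 50 or more, were in the other table. Of all chains of a class, 28.9% and 34.8% of new combinations were found in the other table with the same class, against 20.3% and 20.0% of chains with a new junction, 38.9% and 40.6% of incomplete chains and 74.0% and 81.4% of annotated ones. Members had a median of 10 exons, against 7 for annotated chains found in both and 8 for chains with a new junction.

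**Figure D1:**
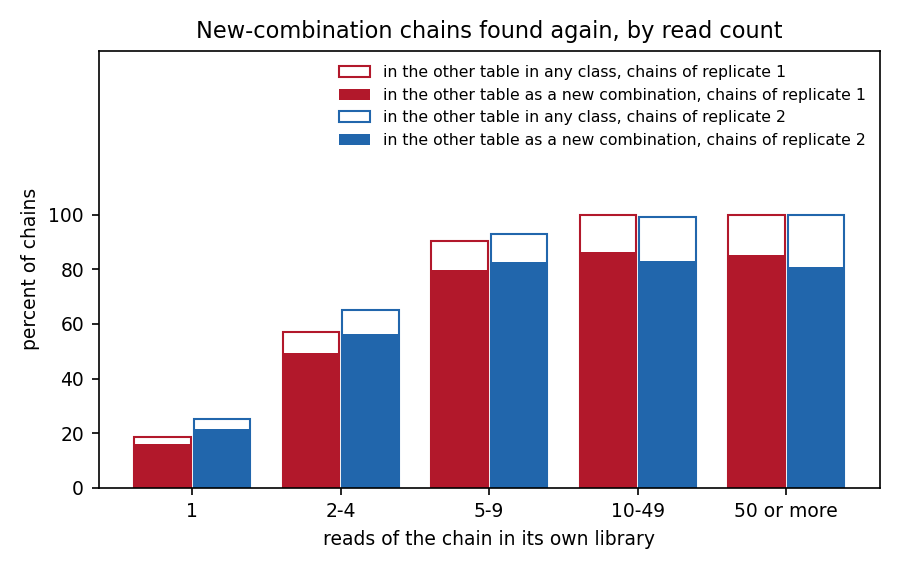
Share of new-combination chains that were found in the other library, by their read count in their own library (bars by replicate, filled for the same class, outlined for any class). In replicate 1, 16.1% of chains with 1 read and 86.3% of those with 10 to 49 reads were members.

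Members differed from chains seen in 1 library alone. Chains of replicate 1 that replicate 2 lacked numbered 6205, and chains of replicate 2 that replicate 1 lacked numbered 4600. An intron was kept in 5.85% of members (5.03 to 6.81%), against 18.8% and 12.4% of these unshared chains. Every junction was annotated in 61.1% of members (59.3 to 63.0%), against 50.2% and 40.6%. The intervals on these percents of members count members as independent, although a gene can hold several. An unannotated site was held by 13.7% of the members with a reference, against 20.3% and 23.9%. Of the unshared chains, 86.2% and 86.6% had a single read.

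Each member was then set against the annotated model of its gene with which it shared most junctions, its reference, and 2683 of the 2690 had one. A skipped exon was the most frequent event, in 682 members (25.4%, 23.8 to 27.1%) of 528 genes, with 27.8% and 29.8% of member reads. Another first exon followed in 433 members (16.1%), then an end longer than that of the reference with further junctions (414, 15.4%), another acceptor (383, 14.3%), another donor (292, 10.9%) and an added exon (246, 9.17%). An intron was kept in 157 members and an intron was removed from an exon of the reference in 123 (4.58%). Another last exon was rare, in 76 (2.83%), 6 swapped an exon, and 160 (5.96%) were too tangled to name. A single event set 2303 members (85.8%) apart from their reference. Differences at the ends lay mostly at the 5′ side: 666 members differed there alone, 235 at the 3′ end alone and 16 at both. Where several junctions of the member or reference differed at an end, another first or last exon was called unchecked. The end exons were then not compared, so members that share the end exon of their reference can be in these counts. Without the 375 members with an unannotated site, a skipped exon was in 28.4% and all junctions were annotated in 70.8%.

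**Figure D2:**
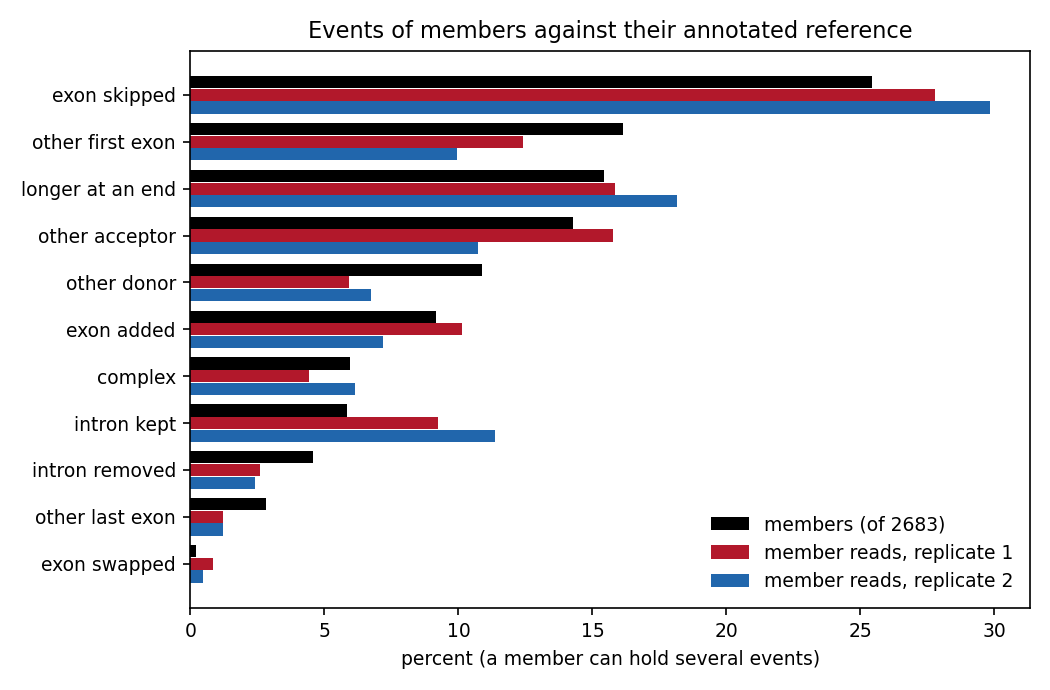
Percent of the 2683 members with a reference that held each event (black) and percent of member reads in replicate 1 (red) and replicate 2 (blue). Skipped exons lead all 3 measures, with 25.4% of members and 27.8% and 29.8% of reads. Kept introns take a larger part of reads than of members. Both read parts rest largely on very short features. Exons of up to 10 bases account for 53.45% and 65.4% of the reads of skipping members. Gaps of up to 10 bases account for 81.7% and 88.0% of the reads of members with a kept intron.

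Exons of up to 10 bases took most of the reads of exon skipping. The 682 members skipped 777 distinct exons, of which 7 had up to 10 bases, yet members that skip those 7 held 53.4% and 65.4% of the reads of all skipping members. Nearly all came from Tnni2 (ENSMUSG00000031097.15), which encodes the fast-fibre troponin I, the subunit that blocks actomyosin at rest. Its leading member, of 7 exons (chromosome 7, 142441808 to 142444405), had 3674 reads in replicate 1 and 4819 in replicate 2, or 69.6% (68.3 to 70.8%) and 56.3% (55.3 to 57.4%) of the reads of the gene. It lacked only exon 3 of the 8 exons of the reference, the 7 bases marked above, and used an unannotated junction between annotated sites. Its share was higher in replicate 1, and the intervals did not overlap, while models classed as genomic, most of them unspliced, took 13.5% of the gene in replicate 2 and 0% in replicate 1. The slow-fibre paralogue Tnni1 was also led by such a member, which had 21 of 25 reads and 55 of 70 (84.0% and 78.6%, overlapping intervals) and lacked exon 4, of 4 bases.

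The same held in genes outside the sarcomere. Phb2, prohibitin 2 of the inner mitochondrial membrane, was led by a member that lacked exon 9, of 6 bases, with 100 of 107 and 125 of 138 reads (93.5% and 90.6%). Sept7, the cytoskeletal GTPase septin 7, was led by a member without exon 2, of 5 bases, with 86 of 93 and 70 of 86 reads. Mpc1, a subunit of the mitochondrial pyruvate carrier, was led by a member that was longer than its reference at an end and spanned an exon of 4 bases that is annotated in the gene, with 262 of 279 and 591 of 639 reads (93.9% and 92.5%). The same junction of that member also spanned another annotated exon of 4 bases, chr17:8296527-8296530. Mpc1 was added to these genes after its structure was seen. In each of these 5 genes every read that crossed the short exon left it out, and no model with the exon had a read in either library.

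That pattern extended to all short exons that could be assessed. For genes of 20 or more reads per library, the annotation lists 51 internal exons of up to 10 bases. Of these, 26 had at least 20 reads in each library that spanned or held them, and 0 of the 26 were held by any read. Members spanned 21 of the 26. An annotated junction also spans 24 of the 26, and the other 2, in Tnni2 and Pitpnc1, have no annotated junction across them. Among annotated internal exons with no annotated junction across them, most reads of both libraries spanned 2 of 2 exons of up to 10 bases, 10 of 118 of 11 to 30 bases (8.47%), 2 of 1393 of 31 to 60 bases (0.144%) and 2 of 7239 of 61 to 120 bases (0.028%). Spliced models of annotated genes did hold internal exons of up to 10 bases, but with 27 reads in replicate 1 and 36 in replicate 2. The part of read alignment in the spanning of short exons was not tested.

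**Figure D3:**
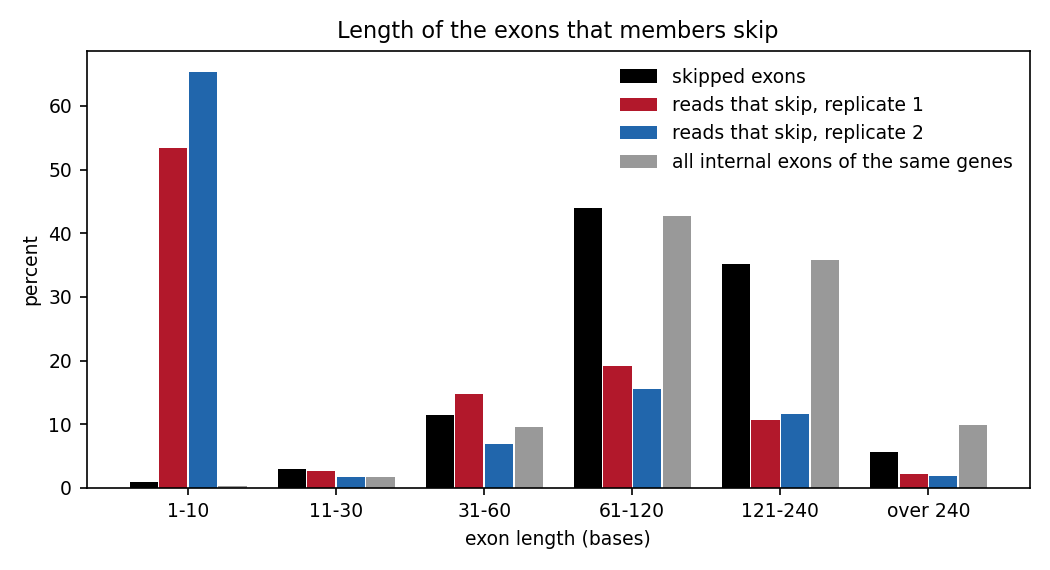
Distribution over length of the 777 exons skipped by members (black), of the reads of the members that skip them in replicate 1 (red) and replicate 2 (blue), and of the 7147 annotated internal exons of the same genes (grey). Exons of 1 to 10 bases were 0.901% of skipped exons but carried 53.4% and 65.4% of the reads.

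Taken as a whole, the skipped exons were like the internal exons of their genes in length. Their median over all 777 was 105 bases, against 114 for all 7147 annotated internal exons of the same genes, and 348 (44.8%) had a length divisible by 3, against 43.6%. The split by junction was wider: where every member used an annotated junction to skip the exon, 129 of 225 exons (57.3%) had such a length, against 219 of 552 (39.7%) with an unannotated junction. Exons skipped by members with at least 5 reads in each library had one in 49 of 87 (56.3%). These counts include exons outside coding sequence, 45 of the 777. Single exons were skipped in 586 events, pairs in 77, and 1 event left out 27 exons.

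Among longer exons, Mbnl2, a muscleblind-like splicing regulator, was led by a member that skipped exon 7 of its 8-exon reference, of 95 bases, with 156 of 228 reads (68.4%, 62.1 to 74.1%) and 52 of 78 (66.7%, 55.6 to 76.1%). Counted over all models of the gene, the skipping junction had 86.3% and 89.7% of the reads that joined those exons either way, and it is annotated. Camk2d, a calcium/calmodulin-dependent kinase of muscle, was led by a 20-exon member without a 42-base exon, with 28 of 61 and 14 of 43 reads. Over all models, the skip had 76.9% and 78.3% of the reads that skipped or held that exon. Nexn, which encodes the actin-binding protein nexilin of the Z-disc, had 150 of 487 and 105 of 1496 reads (30.8% and 7.02%) in a member that skipped a 42-base exon and was longer at an end. Over all models, its skipping junction had 90.8% and 86.7% of the reads that skipped or held that exon. Genomic models took 32.0% and 70.4% of the reads of Nexn, and their part in the difference was not tested.

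Mybpc1, the slow myosin-binding protein C gene, had 210 of 1074 reads and 19 of 301 (19.6% and 6.31%) in a 28-exon member that skipped a 59-base exon, and the intervals did not overlap. Of the reads over all models that skipped or held the exon, 72.6% in replicate 1 and 85.5% in replicate 2 skipped it. Jsrp1, a protein of the junctional sarcoplasmic reticulum, had a member without a 123-base exon. That member had 31 of 380 and 56 of 804 reads (8.16% and 6.97%). Of the reads that skipped or held that exon, 13.5% and 21.1% skipped it, so most held it. Card19 was led by a member with another first exon and without a 60-base exon, with 43 of 101 and 91 of 197 reads (42.6% and 46.2%). The gene 4833439L19Rik was led by a member without a 107-base exon, with 180 of 338 and 130 of 266 reads (53.2% and 48.9%). Of the reads of the gene that skipped or held that exon, 95.8% and 97.1% skipped it.

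Atp2a1, the calcium pump of fast sarcoplasmic reticulum, gave the opposite case of a rare member in a very abundant gene. This member left out the 42-base exon 22 of its 23-exon reference and had a first junction that the reference lacks. It took 325 of 104072 reads and 39 of 35745, or 0.312% (0.280 to 0.348%) and 0.109% (0.0798 to 0.149%). Of the reads over all models that skipped or held that exon, 0.330% and 0.120% skipped it. The intervals did not overlap, and the member also holds an unannotated site. Its first junction was not rare in the gene. Over all models that junction had 99610 reads in replicate 1 and 31821 in replicate 2, and that of the reference had 0 in both. An annotated 18-base exon of Atp2a1 was spanned by 100355 and 32119 reads and held by 0. Whether the first exon of the member differs from that of the reference was not tested.

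Most reads of members with a kept intron came from very short gaps. The 157 members with one held 9.24% and 11.4% of member reads, but 5 of the 157 kept introns had under 50 bases, and the 8 members with those took 81.7% and 88.0% of the reads. These short introns are gaps of 1 or 4 bases in the annotated models of Oaz1, Oaz2, Mpc1 and Nadk2, and no intron under 20 bases was found in any spliced model of either library. Oaz1 (ENSMUSG00000035242.15) and Oaz2 encode antizymes, which target ornithine decarboxylase for breakdown and whose mRNAs are read with a programmed ribosomal frameshift. The leading Oaz1 member (chromosome 10, 80826682 to 80829284) had 1528 of 1588 reads and 2219 of 2330, or 96.2% (95.2 to 97.0%) and 95.2% (94.3 to 96.0%), and it differed from its reference only by holding the 4 bases marked above. All 5 Oaz1 members filled a gap of 4 bases or 1 base in their reference, with 1576 and 2288 reads in all. Of all Oaz1 reads across the gap, 1582 in replicate 1 and 2308 in replicate 2 held its bases and 0 in either library left them out. The leading Oaz2 member likewise filled a 4-base gap, with 399 of 424 and 299 of 359 reads (94.1% and 83.3%).

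The remaining 152 kept introns, of at least 50 bases, were in 149 members (5.55%) of 121 genes, with 446 and 355 reads in all. Their median length was 242 bases. Over all 157 kept introns the median was 236 bases, against 496 for the annotated introns of the same genes, and 75 (47.8%) had up to 200 bases, against 31.3%. Another annotated model covers 73 of the 157 (46.5%) within an exon. In 150 of the 152 a member extended at least 10 bases into the exons on both sides.

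Over the 130 members with a kept intron of any length whose gene had 20 or more reads per library, the median share was 1.15%, and 7 reached a mean of 10%. Of members that kept an intron of at least 50 bases, the one with the most reads was of Ttn, the giant titin gene, with 44 of 263 and 39 of 435 reads (16.7% and 8.97%), but it reached only 1 base beyond the kept 156-base intron, and it also skipped a 303-base exon. Ankrd23, an ankyrin-repeat gene of muscle, had 35 of 2299 and 32 of 1962 reads (1.52% and 1.63%) in a member that kept its 104-base intron 6. Myoz1, a Z-disc myozenin, had 16 of 3682 and 14 of 4679 reads (0.434% and 0.299%) in a member with a kept intron of 372 bases. Acta1, the skeletal actin gene, had 28 of 80662 and 9 of 82734 reads (0.0347% and 0.0109%, intervals apart), and Tnnc2, fast troponin C, 11 of 35900 and 14 of 72172 (0.0306% and 0.0194%). Map7d1 had 18 of 419 and 7 of 174 reads (4.30% and 4.02%) in a member that kept a 96-base intron. Over all its models, 30.2% and 21.3% of the reads that kept or removed that intron kept it.

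New pairings of annotated junctions were the largest group by structure. Of members with a reference, 1640 (61.1%) had only junctions that annotated models of the gene hold, 675 (25.2%) joined annotated sites by a junction that is not annotated, and 368 (13.7%) held an unannotated site. In 772 of the 1640, with 32.0% and 24.8% of member reads, no annotated model had both the first and the last junction of the member.

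Srl, which encodes sarcalumenin, a calcium-binding protein of the sarcoplasmic reticulum lumen, held the most reads of these 772 in the sum over both libraries. Its leading member (ENSMUSG00000022519.14, chromosome 16, 4478879 to 4523063, 6 exons) had 1642 of 2817 reads (58.3%, 56.5 to 60.1%) in replicate 1 and 580 of 1388 (41.8%, 39.2 to 44.4%) in replicate 2. It used the acceptor 3 bases upstream of that in the reference, a site annotated in a longer model, and 90.1% and 88.5% of the reads that chose between the acceptors did so. The intervals of the share of the gene did not overlap between the libraries, and genomic models took 10.2% and 37.8% of Srl. Ctbp1, a transcriptional corepressor, was led by a member with a 3-base shift of the same kind at its last exon (214 of 366 and 150 of 306 reads, 58.5% and 49.02%). Of the reads that chose between those acceptors, 85.1% and 85.9% took the site of the member.

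Small shifts of this size were common among acceptors. Of 389 acceptor events, 146 (37.5%) moved by exactly 3 bases and 202 (51.9%) by up to 10, against 4 (1.32%) and 77 (25.5%) of 302 donor events. The median shift was 6 bases for acceptors and 61.5 for donors. Some shifts were long. Idh3b, a subunit of mitochondrial isocitrate dehydrogenase, was led by a member whose last junction joined an acceptor 289 bases from that of its reference. That member had 388 of 463 and 587 of 760 reads (83.8% and 77.2%). Of the reads that chose between the acceptors, 98.2% and 99.1% took that of the member. Cops7a, a COP9 signalosome subunit, was led by a member with a donor 117 bases from the reference's, with 95 of 164 and 89 of 166 reads (57.9% and 53.6%).

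Other new pairings set a first exon against a later part of the gene. Ndrg2, a stress-responsive gene of the NDRG family, had 730 of 1971 and 614 of 2786 reads (37.0% and 22.0%) in a 16-exon member with another first exon than its annotated reference, which had 783 and 640 reads. Over all models that first junction had 48.2% and 48.5% of reads against that of the reference, with overlapping intervals. Genomic models took 13.2% and 47.6% of Ndrg2. Acta1 had 471 of 80662 and 485 of 82734 reads (0.584% and 0.586%, overlapping) in a member with a 90-base exon added after the first, an exon known from a short annotated model. Eno3, the muscle enolase gene, had 189 of 9504 and 344 of 14856 reads (1.99% and 2.32%) in a 12-exon member that was longer at the 5′ end than its reference.

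Some members led by joining an annotated end to an annotated body. Tmed2, a cargo receptor of the early secretory pathway, was led by a 5-exon member (376 of 416 and 328 of 374 reads, 90.4% and 87.7%), which extended its reference at the 5′ end. That member also holds the bases of a 45-base intron of another annotated model, chr5:124540970-124541014. Ube2d3, a ubiquitin-conjugating enzyme, was led by a 9-exon member with 115 of 253 and 135 of 335 reads (45.5% and 40.3%) and held 8 members in all. Eno1, the enolase of most tissues, was led by a member with a swapped exon. It had 173 of 193 and 108 of 143 reads (89.6% and 75.5%, intervals apart). Of the reads that chose between its 59-base exon and that of the reference, 92.6% and 87.6% took its own. The alternative exons are equal in length and identical at 30 of 59 positions (50.8%).

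Bin1, which shapes the T-tubule membrane, was led by a 14-exon member with a 45-base exon between annotated exons, with 423 of 764 reads (55.4%, 51.8 to 58.9%) and 294 of 639 (46.0%, 42.2 to 49.9%). Over all models, 99.2% and 99.4% of the reads that held or skipped that exon held it. The exon brings splice sites that the annotation lacks, so the model does not meet the name of its class.

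Genes led by a member, that is with a member as the model with the most reads of any class, were counted where a gene had at least 20 reads in each library. Of 3691 such genes, 1093 (29.6%) held a member and 76 (2.06%) were led by a member in both libraries, 73 of them by the same member. A further 51 genes were led by one in replicate 1 alone and 11 in replicate 2 alone. The 73 shared leaders had a median share of 50.04% of the reads of their gene, from 8.89 to 95.7%, and 37 held over 50%. Of the 73, 11 had under 10 reads in a library, the fewest being 4. In 9 of the 73 genes no annotated spliced model had a read in either library. By event, 21 of the leaders were longer at an end, 13 skipped an exon, 10 added an exon, 10 had another first exon, 7 another acceptor and 6 another donor. Without members that span an annotated exon of up to 10 bases or fill an annotated intron under 50 bases, 64 genes remained, so 12 of the 76, Tnni2, Tnni1, Oaz1, Oaz2 and Tmed2 among them, were led by such members. Those members were 110 in all (4.09%), with 28.5% and 38.1% of member reads.

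**Figure D4:**
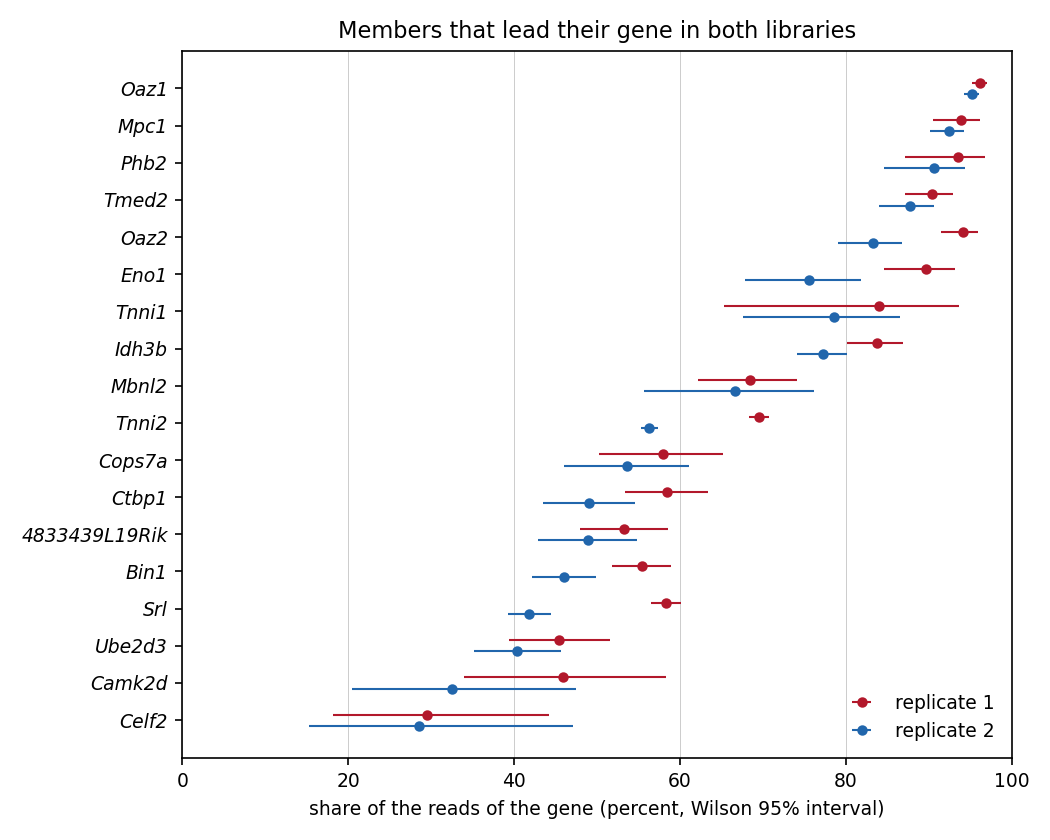
Share of the reads of the gene held by the leading member in replicate 1 (red) and replicate 2 (blue), with Wilson 95% intervals, for the 15 genes with the most reads in the leading member and 3 more from the gene lists. Shares run between 28.6 and 96.2%, and the intervals of Tnni2, Srl, Bin1, Oaz2, Eno1 and Idh3b do not overlap between the libraries.

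A typical member was a minor form. Over the 2026 members whose gene had 20 or more reads per library, the median share was 2.60% (quartiles 0.758 and 6.17%), with medians of 2.56% in replicate 1 and 2.22% in replicate 2. A mean share of at least 10% was reached by 291 members and of at least 50% by 38. By event the median was 3.58% for an added exon, 2.68% for a skipped exon, 2.43% for another first exon and 1.15% for a kept intron. Summed over all members of a gene, the median share was 4.57% over 1091 genes, and 56 genes reached 50%.

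The genes with the most members were among the most deeply read. Tnnt3 had 36 members with 21.3% and 16.2% of its reads, Myl1 35 with 3.59% and 3.74%, Atp2a1 23 with 0.397% and 0.266%, and Eno3 20 with 5.05% and 7.43%. A few genes of low depth were spread over many members. Mff, a receptor for mitochondrial fission, had 18 members with 79 reads in each library, 60.8% and 52.3% of its reads, none above 17.7%. Ktn1, which encodes kinectin, had 13 with 51.2% and 40.3%. Coro6, a coronin of muscle, had 7 with 76.9% and 72.7%. Most genes with a member, 1195 of 1658, had only 1, and 62 had 5 or more.

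Whether a gene held a member moved with its depth: 25.2% of genes with 20 to under 50 reads in the smaller library held one, 31.03% of those with 50 to under 200, 39.6% of those with 200 to under 1000 and 61.3% of those with 1000 or more. The share led by a member was 2.15%, 1.82%, 2.07% and 4.00% in the same order. Against the 29.6% over all measured genes, 33 of 46 sarcomere genes (71.7%) held a member, with 180 members, and so did 13 of 23 triad and calcium genes (56.5%), 10 of 17 glycolysis and energy-buffering genes (58.8%) and 13 of 22 splicing regulators (59.1%). Oxidative phosphorylation had 15 of 38 (39.5%), cytosolic ribosome genes 6 of 29 (20.7%) and extracellular matrix genes 1 of 16 (6.25%). The median depth was 468 and 638 reads per gene in the sarcomere list, 876.5 and 1954.5 in oxidative phosphorylation, 44.5 and 55.0 in the splicing regulators and 57 and 67 over all genes. Ckm, the muscle creatine kinase gene, was counted in the sarcomere list, with 13 members, and not under energy buffering. The part of depth in the counts by list was not tested.

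Of the 191 measured genes of all lists, 7 (3.66%) were led by a member, against 2.06% of all measured genes. They were Tnni1 and Tnni2 of the sarcomere, Bin1, Camk2d and Srl of the triad, and Celf2 and Mbnl2 of the splicing regulators. Celf2, a CELF-family regulator, had 13 of 44 and 8 of 28 reads (29.5% and 28.6%) in a 14-exon leader. The first junction of that leader is not in its reference. Celf2 held 5 members in all. Of the 100 measured glycolysis, oxidative phosphorylation, ribosome and matrix genes 0 were led by one, which is near the 2.06% over all genes.

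Between the libraries, members with many reads in one had many in the other, but shares of the gene differed in size. Over the 2690 members the log2 CPM, read counts scaled to library size, gave a Pearson correlation of 0.755 and a Spearman one of 0.588, as a description across chains of the same genes and libraries. Of the 214 members with at least 10 reads in each library, 154 had the higher share in replicate 1 and 59 in replicate 2, with a median difference of 1.41 percentage points (replicate 1 minus replicate 2). Intervals did not overlap in 30 of them (14.02%), against 916 of 4693 spliced models of all classes with at least 10 reads in each library (19.5%). Of these 30, 27 were higher in replicate 1. Annotated models leaned the same way, with 609 of 630 higher in replicate 1, and incomplete models the other way, with 161 of 206 higher in replicate 2.

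**Figure D5:**
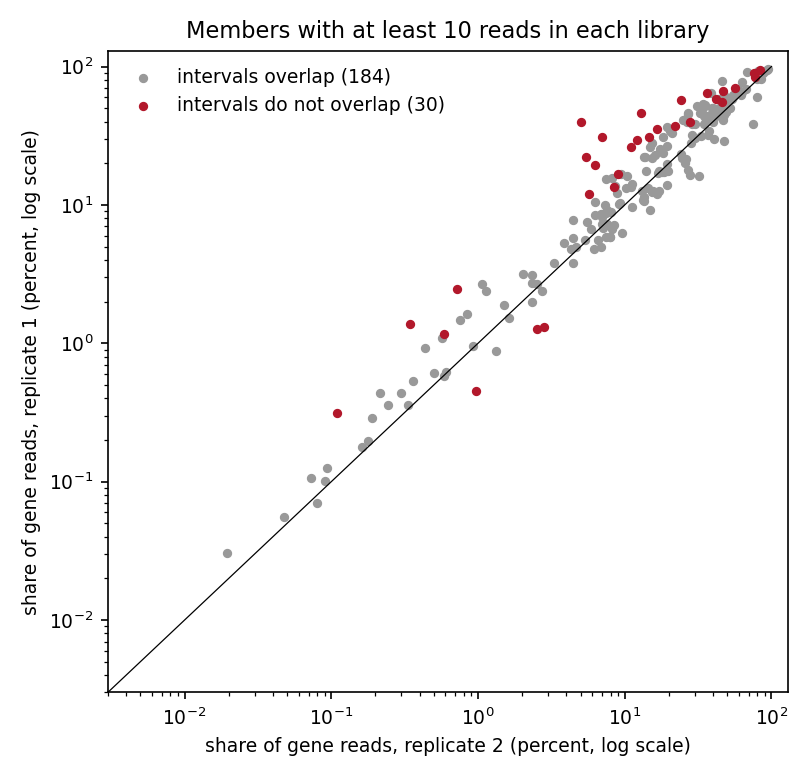
Share of the reads of the gene in replicate 1 (vertical) against replicate 2 (horizontal), both in percent on log axes, for the 214 members with at least 10 reads in each library. The 30 members in red have intervals that do not overlap, and 27 of them lie above the line of equal shares.

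The 5 members with the largest differences, taken from genes of 50 or more reads per library, all had the higher share in replicate 1. Dcaf6, a nuclear receptor cofactor, had 32 of 80 and 16 of 320 reads (40% and 5%) in a member with 2 added exons, and genomic models took 18.8% and 86.9% of the gene. Txnl1, a thioredoxin-like protein, had 31 of 54 and 28 of 115 (57.4% and 24.3%), and Sema4d, a semaphorin, 42 of 114 and 6 of 111 (36.8% and 5.41%), with genomic models at 14.9% and 54.1%. Csnk1g2, a casein kinase, had 87 of 136 and 34 of 94 (64.0% and 36.2%), and incomplete models took 5.15% and 54.3% of it. Nexn, given above, was the fifth. Over all models of Dcaf6, the added exons were in 78.6% and 85.2% of the reads that chose. The part of genomic and incomplete models in these differences was not tested.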

How the data were processed

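Long-read RNA-seq of mouse gastrocnemius was measured in 2 libraries of 1 group. The deposited tables hold raw read counts per transcript model and library, whole numbers that the authors did not normalize or pool. Per the file headers, models are on mm10 with GENCODE M21, and unannotated models carry TALON as source. The sources used here do not give the aligner or the TALON version. Spike-in genes were left out of gene reads.

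Models were matched by chromosome, strand and splice junctions (Python 3.11.15). The reference of a member was the annotated model of its gene with the most shared junctions, ties going to fewest unshared junctions within its span. Events were called from overlapping unshared junctions, over the span common to both libraries, and the caller was tested on simulated models. Shares are percent of all reads of the gene, with Wilson 95% intervals (SciPy 1.17.1), and genes needed 20 reads in each library. Intervals cover counting error only, since reads carry no molecular identifiers in these tables. Those on percents of members count members as independent and leave out their grouping by gene. CPM were scaled to the reads in annotated genes. With 1 group no test was run.

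Named were the 15 genes led by members with most reads, the 10 members with most reads for each of skipped exon, kept intron and new pairing of first and last junction, listed genes led by a member, and the 5 largest differences between libraries. Members and lists were chosen with earlier results of these data known.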

Additional observations from a re-analysis of the deposited data

How the results depend on the processing

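Of 47 alternative settings over 8 results, 19 kept the value within its limits, 28 moved it and 0 reversed it. The number of members (2690) was 1172 with at least 2 reads and 430 with at least 5 reads in each library, and 7732 to 9304 when 1 library is left out, which drops the need to be found in both. With annotated, new-combination and new-junction reads alone as denominator, the member share of gene reads was 2.74%, the median share per member 3.62% and genes led by a member in both libraries 127. Genes led were 36 with at least 50 reads in each library and 110 to 177 with 1 library left out, and the median share was 1.22% and 2.22 to 2.56%. A skipped exon was in 28.8% of members weighted by reads, 19.5% with at least 5 reads, 29.0% with a reference that had reads in both libraries, and 27.2 to 27.9% with 1 library left out. A kept intron was in 10.3% by reads, 3.26% with at least 5 reads and 9.57 to 14.3% with 1 library left out. Annotated junctions alone made up 57.4% by reads, 66.7% with at least 5 reads and 46.1 to 51.5% with 1 library left out. Members with annotated sites only, a setting chosen after seeing the data, gave 28.4% with a skipped exon and 70.8% with annotated junctions alone. Skipped exons divisible by 3 were 56.3% with at least 5 reads and 40.1% with a reference that had reads. The settings without short exons and gaps were also added after seeing the data. The cause of these moves was not tested, other than the fewer members that each stricter setting leaves. No paired analysis was possible because there is 1 group and the results come from no test. Depth limits members of 1 read in each library and the order of models in shallow genes, counted ones included, where 11 shared leaders had under 10 reads in a library.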

Other observations

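Some chains that were a new combination in 1 table alone held a large part of their gene. A 12-exon chain of Idh3g, a subunit of mitochondrial isocitrate dehydrogenase, had 215 and 290 reads (89.2% and 79.9% of the gene), as a new junction in replicate 1 and a new combination in replicate 2. An 8-exon chain of Pdlim5, a Z-disc PDZ and LIM protein, had 154 and 180 reads (66.1% and 55.6%), as a new combination in replicate 1 and a new junction in replicate 2. A chain of Tnnt3 classed in the same order as Pdlim5 had 392 and 493 reads (13.2% and 7.55%).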
